A study of Mus musculus with 65 samples.

Results

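The data describe editing at the mouse gene Fah by 2 single guide RNAs (sgRNAs), Fah-sg1 and Fah-sg2, in hepatocytes collected 3 and 2 weeks post injection (wpi). The 6 libraries named for a Fah cut site were taken from the 65 libraries of the study, and they held 77551 of its 828461 reads. They comprise 1 KO library per guide at 3 wpi, 1 KO library per guide at 2 wpi, and 1 empty vector (EV) library per cut site at 2 wpi. All mice, EV controls included, carried the Rosa-LSL-Cas9-EGFP genotype, a Cas9 and EGFP cassette at the Rosa locus behind a stop sequence that Cre recombinase removes, and the labels name no source of Cre and no age. KO mice were given adeno-associated virus (AAV) with sgRNAs through the retro-orbital route, whereas EV mice were given AAV with an empty sgRNA cassette. Here a library means the reads of 1 amplicon around 1 cut site, and amplicons were pooled for sequencing. Each read stands for the sequence left at that site on 1 amplified copy of the genome. The labelled cell type, hepatocytes, was not checked, since DNA amplicons hold no marker of it. With 1 library in each group, time and animal cannot be told apart, and the labels do not say whether both guides travelled in 1 virus or whether both sites were amplified from the same liver.

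Fah encodes fumarylacetoacetate hydrolase, the last enzyme of tyrosine breakdown, which is abundant in hepatocytes. Its loss in people causes hereditary tyrosinaemia, and in mice, Fah-null hepatocytes are injured by toxic tyrosine intermediates while cells that keep the enzyme can repopulate the liver. Cas9 cuts both DNA strands at the sequence matched by the guide. Non-homologous end joining then leaves mostly short insertions or deletions (indels), microhomology-mediated joining leaves deletions between short repeats, and longer insertions contain DNA copied or captured at the break. An indel whose net length is a multiple of 3 keeps the reading frame when it lies in coding sequence, and other lengths shift it. Fah lies at 84585159 to 84605942 on chromosome 7 of GRCm38.p6, the assembly called mm10. The guide and amplicon sequences were not used here, so the cuts are not placed in an exon and no bases are shown. Left and right below are the directions of each amplicon template, and an allele is a combination of template bases lost on each side of the cut, net length and microhomology length.

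The KO library of Fah-sg1 held 19015 reads at 3 wpi and 17243 at 2 wpi, and its EV library held 13677. The KO library of Fah-sg2 held 9362 reads at 3 wpi and 8323 at 2 wpi, and its EV library held 9931. No read name occurred in more than 1 of these 6 libraries. Over all 65 libraries the depth ran between 2290 and 27974 reads, with a median of 12621. Intervals are 95% intervals of counting error, exact for shares, Newcombe for differences and combined from these for differences of differences. Ratios of odds ratios have Wald intervals. Since reads carry no molecular identifiers, none of the intervals covers copying in the PCR or differences between animals. Every p below comes from Fisher's exact test on the reads of 2 libraries, two-sided and adjusted by the Benjamini-Hochberg method, and compares those libraries and not the conditions.

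Reads without an indel were few in all 4 KO libraries and fewer at 3 than at 2 wpi with both guides. With Fah-sg1 they made up 2.69% of reads (2.46% to 2.93%) at 3 wpi, against 3.38% (3.12% to 3.66%) at 2 wpi. With Fah-sg2 they made up 2.42% (2.12% to 2.76%) at 3 wpi, against 5.23% (4.76% to 5.73%) at 2 wpi. The EV libraries show the level without a guide: 99.7% of reads had no indel at the Fah-sg1 site and 99.9% at the Fah-sg2 site. Reads that matched the template across the cut without any change made up 2.52% at 3 wpi and 3.23% at 2 wpi with Fah-sg1, and 2.05% at 3 wpi and 4.34% at 2 wpi with Fah-sg2. The rest of the reads without an indel carried a replacement of equal length at the cut. Such replacements made up 0.374% of Fah-sg2 reads at 3 wpi and 0.889% at 2 wpi (adjusted exact p = 8.09e-05), against 0.161% in the EV library. With Fah-sg1 they made up 0.168% at 3 wpi and 0.151% at 2 wpi (adjusted exact p = 0.818), with 0.256% in the EV library. Replacements can be recorded only in reads without an indel, so KO and EV shares of all reads have unlike bases. Of reads without an indel at the Fah-sg1 site, they were 32 of 511 at 3 wpi and 26 of 583 at 2 wpi. In its EV library they were 35 of 13639. At the Fah-sg2 site they were 35 of 227 at 3 wpi and 74 of 435 at 2 wpi. In its EV library they were 16 of 9920.

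The drop in reads without an indel differed between the guides. The indel share was higher at 3 than at 2 wpi by 2.80 points with Fah-sg2 (2.24 to 3.38) and by 0.694 points with Fah-sg1 (0.340 to 1.05), so that the change with Fah-sg2 exceeded that with Fah-sg1 by 2.11 points (1.44 to 2.79). As odds of an indel, the ratio of 3 over 2 wpi was 2.22 with Fah-sg2 and 1.27 with Fah-sg1, a ratio of odds ratios of 1.75 (1.43 to 2.15). At 3 wpi the indel shares of the guides differed by 0.263 points (Fah-sg2 minus Fah-sg1, -0.136 to 0.641, adjusted exact p = 0.229), whereas at 2 wpi they differed by -1.85 points (-2.41 to -1.31, adjusted exact p = 6.31e-12). On the 2 tiles of the sequencer, read apart, the Fah-sg2 indel share was 97.7% and 97.5% at 3 wpi, against 94.96% and 94.6% at 2 wpi. On the first tile alone the Fah-sg1 difference was 0.405 points and did not pass the test (adjusted exact p = 0.112). If 1 bp indels were counted as unedited, the Fah-sg1 difference turned to -2.24 points and passed the test. The Fah-sg2 difference turned to -0.939 points and did not pass.

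**Figure D1:**
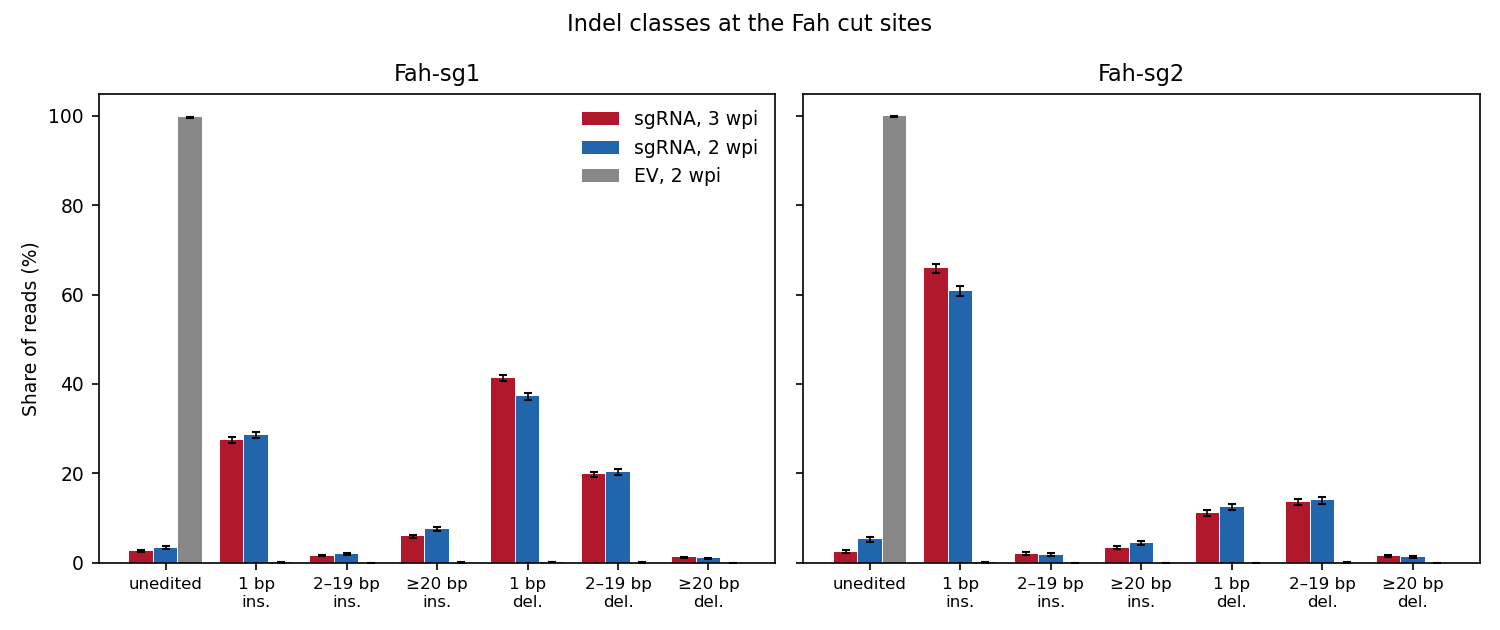
Share of reads (%, linear axis) without an indel and in each of 6 indel classes at the Fah-sg1 site (left) and the Fah-sg2 site (right), for the KO libraries at 3 and 2 wpi and the EV library at 2 wpi. Bars are single libraries and error bars exact 95% intervals; 1 bp deletions lead with Fah-sg1 and 1 bp insertions with Fah-sg2 at both times, and EV bars outside the unedited class are close to 0.

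The guides left different kinds of indel, and for 1 bp insertions and 1 bp deletions the contrast between guides was larger than the changes with time. Of indel reads, 1 bp insertions made up 67.5% with Fah-sg2 and 28.3% with Fah-sg1 at 3 wpi, a difference of 39.3 points (38.1 to 40.4). At 2 wpi they made up 64.2% with Fah-sg2 and 29.6% with Fah-sg1, a difference of 34.6 points (33.3 to 35.8). Single-base deletions ran the other way, with 11.4% in Fah-sg2 and 42.4% in Fah-sg1 indel reads at 3 wpi, and 13.2% in Fah-sg2 and 38.5% in Fah-sg1 at 2 wpi. Deletions of 2 to 19 bp were lower with Fah-sg2 (-6.36 points at 3 wpi and -6.27 points at 2 wpi), and so were insertions of 20 bp or more (-2.64 points at 3 wpi and -3.13 points at 2 wpi). Deletions of 20 bp or more did not differ past the test at 3 wpi (0.284 points, adjusted exact p = 0.0697) or at 2 wpi (0.261 points, adjusted exact p = 0.0913). Over all pairs of guides to 1 target in the study, 85.1% of class tests passed, so differing guides were the usual case. The total variation distance between the length spectra of the guides, where 0 is identical and 1 is no overlap, was 0.429 at 3 wpi and 0.402 at 2 wpi. The same distance between the times of 1 guide was 0.0973 with Fah-sg1 and 0.0935 with Fah-sg2.

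Between times the leading class of each guide held a larger share at 3 wpi, and long insertions held a smaller share with both guides. With Fah-sg1, 4 of 6 classes passed the test, and with Fah-sg2, 3 of 6 did. Over all time comparisons of the study, which include other weeks and arms, 54.2% of class tests passed. In Fah-sg1 indel reads 1 bp deletions were higher at 3 wpi by 3.88 points (2.85 to 4.91), and 1 bp insertions were lower (-1.35 points, adjusted exact p = 0.0136). In Fah-sg2 indel reads 1 bp insertions were higher at 3 wpi by 3.36 points (1.93 to 4.78), and 1 bp deletions were lower (-1.74 points, adjusted exact p = 0.00165). The changes therefore ran in opposite directions in the guides. The change in 1 bp insertions with Fah-sg2 exceeded that with Fah-sg1 by 4.71 points (2.99 to 6.42), and the corresponding difference for 1 bp deletions was -5.62 points (-7.05 to -4.2).

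Insertions of 20 bp or more made up 6.07% of Fah-sg1 indel reads at 3 wpi and 7.83% at 2 wpi (adjusted exact p = 5.04e-10), and 3.44% of Fah-sg2 indel reads at 3 wpi and 4.70% at 2 wpi (adjusted exact p = 0.000118). The guides' changes in this class differed by 0.493 points, an interval of -0.313 to 1.29 that includes 0. Insertions of 2 to 19 bp were 1.64% at 3 wpi and 1.99% at 2 wpi with Fah-sg1 (adjusted exact p = 0.0307), and 2.07% at 3 wpi and 1.93% at 2 wpi with Fah-sg2 (adjusted exact p = 0.643). Neither deletions of 2 to 19 bp nor deletions of 20 bp or more passed the test between times with either guide. Their differences lay between -0.727 and 0.238 points.

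At the Fah-sg1 site 9 alleles held at least 1% of reads at 1 of the times, and together they held 82.8% of indel reads at 3 wpi and 80.6% at 2 wpi. The leading allele, loss of the single base right of the cut, had 7149 reads at 3 wpi, 5874 at 2 wpi and 9 in the EV library. It took 38.6% of indel reads at 3 wpi and 35.3% at 2 wpi, higher by 3.38 points (2.37 to 4.39). The 1 bp insertion without loss of template bases came next, with 5106 reads at 3 wpi, 4836 at 2 wpi and 10 in the EV library, and its share was lower at 3 wpi (-1.43 points, -2.38 to -0.491). Loss of the first pair of bases right of the cut had 1073 reads at 3 wpi and 1078 at 2 wpi and was also lower (-0.672 points, adjusted exact p = 0.0142). The minor single-base deletion, of the base left of the cut, had 409 reads at 3 wpi and 311 at 2 wpi and was higher (adjusted exact p = 0.0341). The largest relative change of these 9 was in a 4 bp deletion to the right with 1 bp of microhomology, with 251 reads at 3 wpi and 135 at 2 wpi, a ratio of shares of 1.67 (adjusted exact p = 3.26e-06). The 4 others did not pass the test, among them the leading in-frame allele, a 3 bp net deletion that lost 4 template bases right of the cut and had 301 reads at 3 wpi and 311 at 2 wpi.

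At the Fah-sg2 site 12 alleles reached 1% of reads, and together they held 86.6% of indel reads at 3 wpi and 85.3% at 2 wpi. The 1 bp insertion without template loss had 6006 reads at 3 wpi, 4920 at 2 wpi and 7 in the EV library. That was 65.7% of indel reads at 3 wpi and 62.4% at 2 wpi, higher by 3.37 points (1.93 to 4.82). The next allele, in which 2 bases left of the cut were replaced by 1 base, had 549 reads at 3 wpi, 642 at 2 wpi and 1 in the EV library, and its share was lower (-2.13 points, -2.91 to -1.36). A 1 bp deletion one base away from the cut could be recorded in this form too, and without bases the forms cannot be told apart. Loss of the base right of the cut, the leading allele of the other guide, had 306 reads at 3 wpi and 190 at 2 wpi and was higher, with a ratio of shares of 1.39 (adjusted exact p = 0.000653). Loss of the base left of the cut had 156 reads at 3 wpi and 158 at 2 wpi and did not pass the test.

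The widest relative changes among these 12 alleles were both in deletions to the left of the Fah-sg2 cut. The clean 2 bp deletion on that side had 108 reads at 3 wpi and 29 at 2 wpi, a ratio of shares of 3.22 (adjusted exact p = 8.91e-09). A 5 bp deletion with 2 bp of microhomology had 29 reads at 3 wpi and 103 at 2 wpi, a ratio of 0.243 (adjusted exact p = 1.61e-12). In all, 4 of the 12 were higher, 3 lower and 5 did not pass, and at the Fah-sg1 site 3 of the 9 were higher, 2 lower and 4 did not pass. Over all alleles tested, 78.4% passed at the Fah-sg2 site and 79.2% at the Fah-sg1 site. Some of the largest called changes were in rarer alleles. At the Fah-sg1 site a 7 bp deletion to the right with 1 bp of microhomology had 58 reads at 3 wpi and 131 at 2 wpi. An insertion of 54 bp there had 1 read at 3 wpi and 67 at 2 wpi. A 6 bp net deletion to the right had 108 at 3 wpi and 40 at 2 wpi. At the Fah-sg2 site a 5 bp net deletion to the left with 1 extra base had 7 reads at 3 wpi and 40 at 2 wpi.

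**Figure D2:**
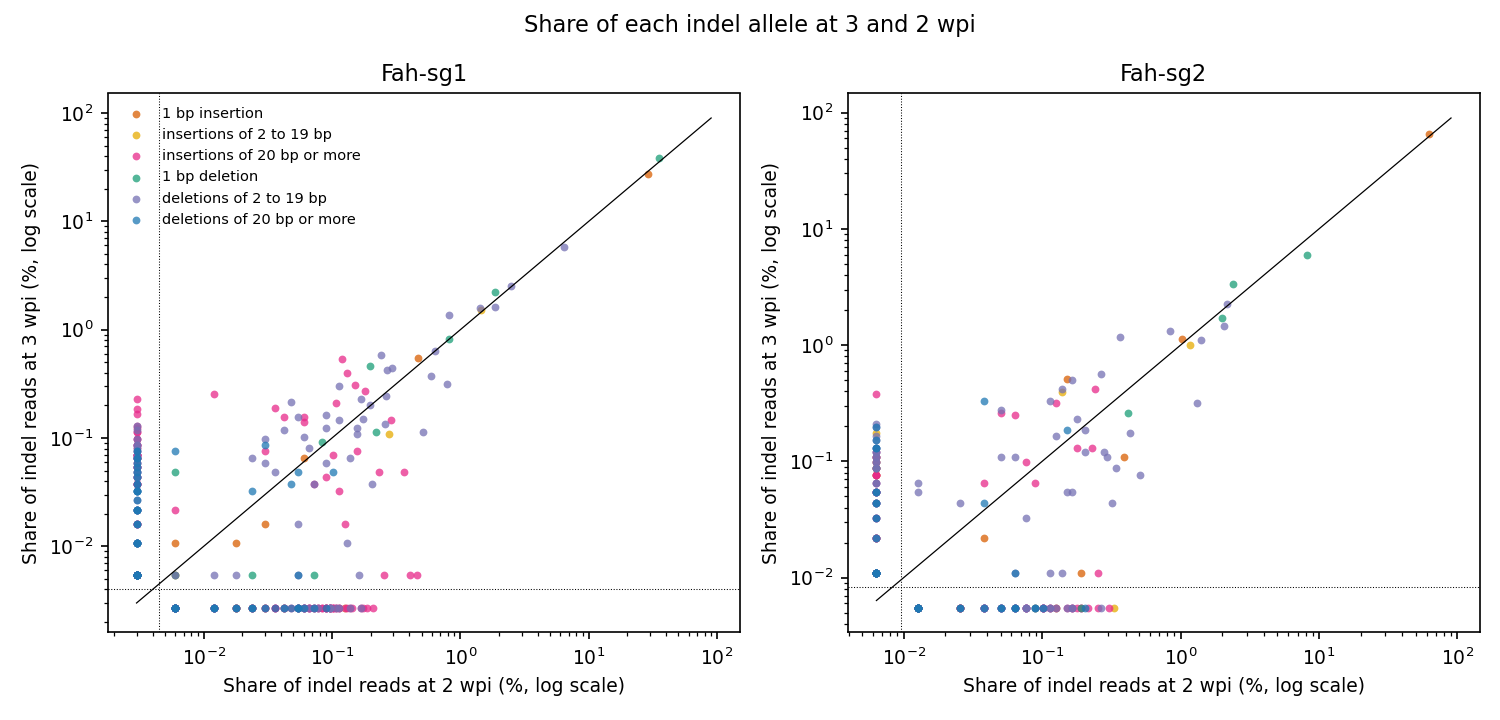
Share of indel reads of each allele at 3 wpi (vertical) against 2 wpi (horizontal), in percent on log axes, at the Fah-sg1 site (left) and the Fah-sg2 site (right), coloured by class. Each point is an allele, the line marks equal shares, and points beyond a dotted line had 0 reads at that time; most alleles above 1% lie close to the line, and most long insertions (pink) and long deletions (blue) were read at 1 time only.

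Most alleles were rare and were read at 1 time only, while most reads belonged to alleles read at both times. At the Fah-sg1 site 219 alleles were read at 3 wpi and 214 at 2 wpi, and the 93 read at both times were 42.5% of the alleles at 3 wpi and 43.5% of those at 2 wpi. These 93 held 94.8% of indel reads at 3 wpi and 93.3% at 2 wpi. At the Fah-sg2 site 143 alleles were read at 3 wpi and 150 at 2 wpi, and the 58 read at both times were 40.6% of the alleles at 3 wpi and 38.7% of those at 2 wpi. They held 94.2% of indel reads at 3 wpi and 92.7% at 2 wpi. At an equal number of 16660 indel reads Fah-sg1 had 214 expected alleles at 3 wpi and 214 at 2 wpi, and at 7888 indel reads Fah-sg2 had 139 at 3 wpi and 150 at 2 wpi. The inverse Simpson index, the number of equally common alleles that would give the same diversity, was 4.32 at 3 wpi and 4.65 at 2 wpi with Fah-sg1, and 2.28 at 3 wpi and 2.51 at 2 wpi with Fah-sg2.

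Of alleles with at least 10 reads in both times together, 178 were tested at the Fah-sg1 site, of which 67 (37.6%) were higher and 74 (41.6%) lower at 3 wpi. At the Fah-sg2 site 88 were tested, of which 35 (39.8%) were higher and 34 (38.6%) lower. Over the 18 time comparisons at other sites 36.3% were higher and 32.5% lower, and over all 20 comparisons 36.7% were higher and 34.2% lower. These 18 mix different weeks and arms of the study, and only 9 of them compare 3 against 2 wpi. These calls are 79.2% of the alleles tested with Fah-sg1 and 78.4% with Fah-sg2, against 68.8% over the 18 time comparisons at other sites and 70.9% over all 20. Of the called alleles, 95 at the Fah-sg1 site and 39 at the Fah-sg2 site had no read at the other time. Such an allele reached the minimum of 10 reads only through the time at which it was read. Since 10 reads against 0 already passed in either direction at both sites, these calls were fixed by that minimum. Copies of 1 molecule are not independent reads, and their part in the calls was not tested. With Bonferroni adjustment the calls numbered 21 higher and 44 lower with Fah-sg1, and 8 higher and 15 lower with Fah-sg2. The total variation distance between the allele spectra at 3 and 2 wpi was 0.137 with Fah-sg1 and 0.150 with Fah-sg2. Between the sequencer tiles of 1 library it was 0.0387 to 0.0578, and in the 9 other comparisons of 3 against 2 wpi in the study 0.0903 to 0.359 with a median of 0.196.

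Most long insertion alleles were read at 1 time only, as were most alleles over all classes. Taking all classes together, 93 of 340 Fah-sg1 alleles and 58 of 235 Fah-sg2 alleles were read at both times. Insertions of 20 bp or more comprised 74 alleles at 3 wpi and 87 at 2 wpi with Fah-sg1, of which 24 occurred at both times. With Fah-sg2 there were 35 at 3 wpi and 46 at 2 wpi, of which 10 occurred at both. Of the Fah-sg1 long insertions tested, 79 of 84 passed, and of the Fah-sg2 ones 18 of 23 passed. Calls with no read at the other time, which the minimum of 10 reads fixes, were 61 of the 79 and 14 of the 18. Such calls over all classes numbered 95 of 141 with Fah-sg1 and 39 of 69 with Fah-sg2. Over all classes 79.2% of Fah-sg1 and 78.4% of Fah-sg2 alleles passed, so the Fah-sg2 long insertions were at the usual rate. Deletions of 20 bp or more shared few alleles too, with 7 of 64 read at both times with Fah-sg1 and 4 of 42 with Fah-sg2. Insertions of 20 bp or more gave 39.9% of the distance between the spectra at the Fah-sg1 site and 20.9% at the Fah-sg2 site. They held under 8% of indel reads in each library. Without these insertions the Fah-sg1 calls numbered 30 higher and 31 lower, an alternative chosen after seeing the data.

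Each single long insertion was rare, and none exceeded 0.535% of the indel reads of its library. The most frequent one at the Fah-sg1 site at 3 wpi, of 29 bp, had 99 reads at 3 wpi, 20 at 2 wpi and 1 in the EV library. At 2 wpi the most frequent was of 50 bp, with 1 read at 3 wpi, 76 at 2 wpi and 1 in the EV library. At the Fah-sg2 site an insertion of 43 bp had 35 reads at 3 wpi and none of 7888 indel reads at 2 wpi. The inserted bases are not given, so insertions of the same length may differ in sequence, and their source was not tested. The median long insertion read was of 42 bp at 3 wpi and 47 bp at 2 wpi with Fah-sg1, and of 49 bp at 3 wpi and 48 bp at 2 wpi with Fah-sg2. The longest were of 164 bp at 3 wpi and 156 bp at 2 wpi with Fah-sg1, and 177 bp at 3 wpi and 174 bp at 2 wpi with Fah-sg2. Insertions of 60 bp or more made up 14.8% of Fah-sg1 long insertion reads at 3 wpi and 23.8% at 2 wpi, whereas with Fah-sg2 they made up 22.9% at 3 wpi and 18.6% at 2 wpi. Ends that kept all template bases on both sides of the cut were found in 68.0% of long insertion reads at 3 wpi and 63.8% at 2 wpi with Fah-sg1, and in 83.4% at 3 wpi and 64.7% at 2 wpi with Fah-sg2.

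**Figure D3:**
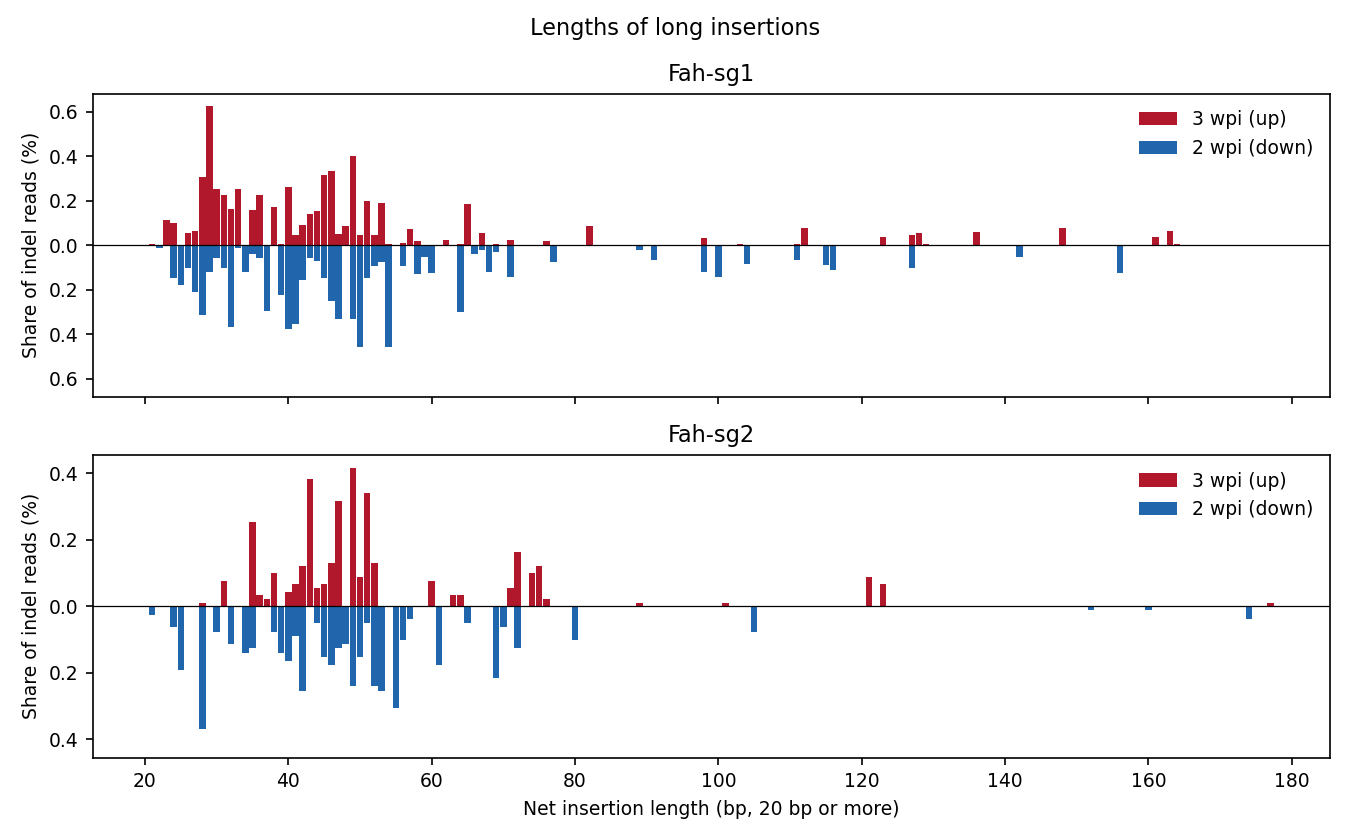
Share of indel reads (%) by net length of insertions of 20 bp or more at the Fah-sg1 site (top) and the Fah-sg2 site (bottom), with 3 wpi drawn upward and 2 wpi downward from the zero line. Each bar is 1 length in 1 library; lengths cluster between 20 and 60 bp at both times, while the tallest bars fall at different lengths in each library.

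Deletions extended mainly to the right of the cut with Fah-sg1 and mainly to the left with Fah-sg2. Of Fah-sg1 deletion reads, 83.8% (83.1% to 84.5%) lost bases on the right only at 3 wpi and 84.9% (84.2% to 85.6%) at 2 wpi. Of Fah-sg2 deletion reads, 31.2% did so at 3 wpi and 28.1% (26.3% to 30.0%) at 2 wpi, whereas 58.6% at 3 wpi and 62.8% at 2 wpi lost bases on the left only. The share that reached further right than left differed between Fah-sg2 and Fah-sg1 by -50.4 points at 3 wpi and by -54.1 points at 2 wpi. With Fah-sg2 this share was 35.7% at 3 wpi and 32.5% at 2 wpi (adjusted exact p = 0.0431), and with Fah-sg1 it was 86.0% at 3 wpi and 86.7% at 2 wpi (adjusted exact p = 0.213).

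The single base most often lost was the first on the right of the Fah-sg1 cut, missing from 58.8% of indel reads at 3 wpi and 55.9% at 2 wpi, while the first on the left was missing from 11.8% at 3 wpi and 11.6% at 2 wpi. At the Fah-sg2 cut the first base on the left was missing from 21.1% at 3 wpi and 24.0% at 2 wpi, and the first on the right from 11.8% at 3 wpi and 11.95% at 2 wpi. Microhomology bases, which remain in 1 copy, count to neither side here. Single-base deletions of Fah-sg1 were of the right base in 91.1% of reads at 3 wpi and 91.5% at 2 wpi. Those of Fah-sg2 were of the right base in 29.3% at 3 wpi and 18.3% at 2 wpi, and of the left base in 14.9% at 3 wpi and 15.2% at 2 wpi. The rest were recorded with extra bases at the junction. Extra bases were recorded in 38.6% of Fah-sg2 deletion reads at 3 wpi and 42.96% at 2 wpi (adjusted exact p = 0.00391), and in 13.6% of Fah-sg1 deletion reads at 3 wpi and 14.6% at 2 wpi (adjusted exact p = 0.0438). With Fah-sg2, 549 of the 950 such reads at 3 wpi and 642 of the 989 at 2 wpi were of 1 allele. In it 2 bases left of the cut were replaced by 1 base, a form that a 1 bp deletion away from the cut could also take. The difference without this allele was not tested. The longest deletions were of 60 bp at 3 wpi and 62 bp at 2 wpi with Fah-sg1, and of 48 bp at 3 wpi and 49 bp at 2 wpi with Fah-sg2.

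**Figure D4:**
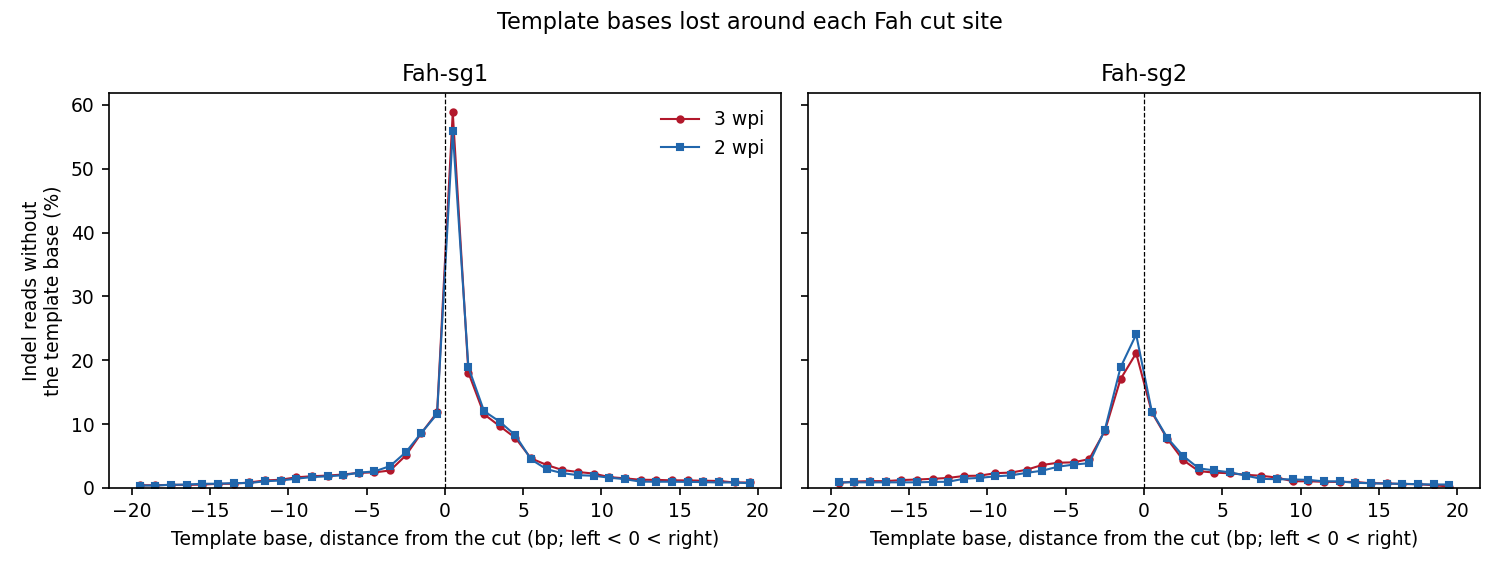
Share of indel reads (%) that lack each template base, by distance from the cut in bp (left negative, right positive), at the Fah-sg1 site (left) and the Fah-sg2 site (right), for 3 and 2 wpi KO libraries. The peak lies on the first base right of the cut with Fah-sg1 and on the first base left of it with Fah-sg2, and the profiles of both times nearly overlie each other.

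Microhomology of at least 2 bp at the junction was found in few deletions of 2 bp or more, and the change of its share with time differed between the guides. With Fah-sg1 it was found in 237 of 3997 such reads (5.93%) at 3 wpi and 130 of 3669 (3.54%) at 2 wpi, higher by 2.39 points (1.44 to 3.34, adjusted exact p = 2.46e-06). With Fah-sg2 it was found in 149 of 1418 (10.5%) at 3 wpi and 158 of 1263 (12.5%) at 2 wpi, a difference of -2.0 points that did not pass the test (-4.45 to 0.413, adjusted exact p = 0.190). The change with Fah-sg2 minus that with Fah-sg1 was -4.39 points (-7.01 to -1.79). The share itself was higher with Fah-sg2 than with Fah-sg1 by 4.58 points at 3 wpi and by 8.97 points at 2 wpi.

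With Fah-sg2 the 2 wpi share rested mainly on 1 allele. The 5 bp deletion with 2 bp of microhomology made up 103 of the 158 reads at 2 wpi and 29 of the 149 at 3 wpi, while a 22 bp deletion with 6 bp had 30 reads at 3 wpi and 3 at 2 wpi, and a 48 bp deletion with 4 bp had 18 at 3 wpi and none at 2 wpi. With Fah-sg1 the microhomology reads were spread over 23 alleles at 3 wpi and 19 at 2 wpi. The most frequent ones did not differ past the test, an 18 bp deletion with 5 bp having 27 reads at 3 wpi and 19 at 2 wpi, and a 13 bp deletion with 3 bp having 23 at 3 wpi and 26 at 2 wpi. Of the 15 such Fah-sg1 alleles tested 6 were higher and 1 lower at 3 wpi, where over all Fah-sg1 alleles tested 37.6% were higher and 41.6% lower. The 6 had 10 to 16 reads each at 3 wpi and 0 or 1 at 2 wpi. Among them were a 16 bp deletion with 2 bp of microhomology (16 reads at 3 wpi and 0 at 2 wpi) and a 23 bp deletion with 4 bp (14 at 3 wpi and 0 at 2 wpi). Calls of alleles with 0 reads at 2 wpi were fixed by the minimum of 10 reads. With a minimum of 3 bp of microhomology the difference was 3.61 points with Fah-sg2, of opposite sign (adjusted exact p = 4.87e-05), and 0.697 points with Fah-sg1, which no longer passed (adjusted exact p = 0.118). With each allele counted once neither difference passed.

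In-frame indels were a small part of the indel reads with both guides, and their share did not differ past the test between times. With Fah-sg1 1303 of 18504 indel reads (7.04%, 6.68% to 7.42%) kept the frame at 3 wpi and 1264 of 16660 (7.59%, 7.19% to 8.0%) at 2 wpi, a difference of -0.545 points (adjusted exact p = 0.0852). With Fah-sg2 468 of 9135 (5.12%, 4.68% to 5.595%) kept it at 3 wpi and 376 of 7888 (4.77%, 4.31% to 5.26%) at 2 wpi, a difference of 0.356 points (-0.300 to 1.01, adjusted exact p = 0.385). The change with Fah-sg2 exceeded that with Fah-sg1 by 0.902 points (0.0490 to 1.75), but the ratio of odds ratios was 1.17 with an interval of 0.996 to 1.37 that includes 1. Counted over all reads, frameshifts made up 90.5% at 3 wpi and 89.3% at 2 wpi with Fah-sg1, and 92.6% at 3 wpi and 90.3% at 2 wpi with Fah-sg2. Reads that were in frame or unedited made up 9.54% at 3 wpi and 10.7% at 2 wpi with Fah-sg1 (adjusted exact p = 0.000271), and 7.42% at 3 wpi and 9.74% at 2 wpi with Fah-sg2 (adjusted exact p = 4.75e-08).

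The in-frame share was lower with Fah-sg2 than with Fah-sg1, with differences of -1.92 points at 3 wpi (-2.49 to -1.33) and -2.82 points at 2 wpi (-3.43 to -2.19). Most indel reads carried a net change of 1 bp, which always shifts the frame. Without 1 bp indels the in-frame share with Fah-sg2 was 24.4% at 3 wpi and 21.1% at 2 wpi, and with Fah-sg1 it was 24.0% at 3 wpi and 23.8% at 2 wpi, where a share of 33.3% would fall in each frame if lengths were even. On this basis the difference of Fah-sg2 minus Fah-sg1 was 0.339 points at 3 wpi, of opposite sign and not past the test (adjusted exact p = 0.809), and -2.77 points at 2 wpi, which passed (adjusted exact p = 0.0191). The Fah-sg2 difference between times was 3.31 points and passed (adjusted exact p = 0.0306). With the leading allele of each library left out, Fah-sg2 minus Fah-sg1 turned to 3.48 points at 3 wpi, which passed with the opposite sign (adjusted exact p = 6.51e-07), and to 0.95 points at 2 wpi, which did not (adjusted exact p = 0.179).

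Deletions of 3 bp were the largest in-frame group of Fah-sg1, with 522 reads at 3 wpi and 526 at 2 wpi, followed by long insertions with 320 at 3 wpi and 337 at 2 wpi. With Fah-sg2 3 bp deletions had 168 reads at 3 wpi and 93 at 2 wpi, and in-frame long insertions had 94 at 3 wpi and 108 at 2 wpi. At the Fah-sg2 site 3 alleles of the 3 bp length were higher at 3 wpi: the one that lost 3 bases left of the cut had 52 reads at 3 wpi and 21 at 2 wpi, the one that lost 3 bases right of it had 38 at 3 wpi and 11 at 2 wpi, and the one that lost 4 bases left of it with 1 extra base had 46 at 3 wpi and 13 at 2 wpi. In the other direction, the 3 bp insertion without loss of template bases at that site had 0 reads at 3 wpi and 26 at 2 wpi. The 3 deletion alleles given here and the alleles of 13, 16, 18, 22, 23 and 48 bp given for microhomology fall outside the naming rule. They were chosen after their values were seen. Of 25 in-frame alleles tested with Fah-sg2, 14 were higher and 8 lower. Over all Fah-sg2 alleles tested 39.8% were higher and 38.6% lower. Of 47 in-frame alleles tested with Fah-sg1, 19 were higher and 16 lower. Over all Fah-sg1 alleles tested 37.6% were higher and 41.6% lower. Many of these in-frame calls, in both directions, were of alleles with no read at the other time. Such calls were fixed by the read minimum, so the counts of higher and lower alleles rest in part on it.

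The EV libraries held 38 indel reads in 12 alleles at the Fah-sg1 site, 0.278% of reads (0.197% to 0.381%), of which 28 were 1 bp indels. All 12 alleles were also read in a KO library of that site. At the Fah-sg2 site the EV library held 11 indel reads in 5 alleles, 0.111% of reads (0.0553% to 0.198%), of which 9 were 1 bp indels and 4 alleles were also read in a KO library. The last matched position in the read, corrected for the indel length, was most often 306 in both KO libraries and 308 in the EV library at the Fah-sg1 site, and 290 in both KO libraries and 292 in the EV library at the Fah-sg2 site. Its part in the difference between KO and EV was not tested. Subtracting the EV share leaves a difference between times as it is, since 1 EV library serves both times. The other 9 comparisons of 3 against 2 wpi in the study, at EGFP and Lats sites, had indel shares of 11.8% to 93.7% at 3 wpi and differences of -10.2 to 10.996 points. Both Fah differences lay inside that range, and at 3 wpi the Fah shares of 97.3% and 97.6% were above all 9.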

How the data were processed

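Per the labels' protocols, PCR amplified hepatocyte DNA around each cut, and equimolar pools of amplicons were made into sequencing libraries. The deposited tables hold 1 row per read with junction positions, net indel length and microhomology length in bp, which are other values than counts or normalised levels, per the file headers. Bowtie2, deepTools, bcl2fastq, R 4.2.1 and mm10 appear in the submitters' processing notes without a role, and which tool aligned the junctions is not stated there. All junctions span 1 template position, taken as the cut (188 at Fah-sg1 and 191 at Fah-sg2), so indels elsewhere are not seen.

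Reads were grouped by site, arm and time from the labels, and all 65 libraries entered the fits of the whole study; a second table of each Tfam-sg2-3 sample was left out. An indel read has a net length other than 0, and microhomology means at least 2 bp. Fisher's exact tests were adjusted over 20 time comparisons or 28 pairs of guides, over 120 and 168 class tests, and over 1282 alleles with at least 10 reads, at a threshold of 0.05. Shares carry Clopper-Pearson intervals, differences Newcombe intervals, differences of differences intervals combined from these, and ratios of odds ratios Wald intervals. The naming rule took alleles that held at least 1% of reads in a KO library of their site. It also took the 5 largest called changes in each direction per site. Not all of these are described singly, and other named alleles are marked. The members, lists and tests were chosen with earlier results of these data known. Alternatives changed the read minimum, the adjustment, the tile, the microhomology minimum and the treatment of 1 bp indels, the leading allele and rare alleles. The tests were tested on simulated data. The tests used scipy 1.17.1 and statsmodels 0.14.6 under Python 3.11.15, tables pandas 2.3.3 and numpy 2.4.6, and plots matplotlib 3.10.9.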

Additional observations from a re-analysis of the deposited data

Results flagged for a closer look

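For 5 quantities the change at 3 against 2 wpi differed between the guides, with an interval of the difference (Fah-sg2 minus Fah-sg1) that excluded 0. The difference was 2.11 points for the indel share of reads, 4.71 points for 1 bp insertions among indel reads and -5.62 points for 1 bp deletions among indel reads. It was -4.39 points for microhomology among deletions of 2 bp or more, where the sign of the Fah-sg2 change depended on the microhomology minimum. It was 0.902 points for the in-frame share of indel reads, for which the ratio of odds ratios had an interval that included 1. Each rests on 4 libraries, and the intervals cover counting error only.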

How the results depend on the processing

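With 1 bp indels counted as unedited, the Fah-sg1 difference in indel share at 3 against 2 wpi turned to -2.24 points and passed. That of Fah-sg2 turned to -0.939 points and did not pass. The guides' changes then differed by 1.30 points with an interval that included 0. On the first sequencer tile alone the Fah-sg1 difference was 0.405 points and 2 of its classes passed instead of 4. The in-frame difference between times with Fah-sg2 was -0.177 points on the second tile alone and -2.03 with each allele counted once. With unedited reads included over all reads it was -2.32 and passed the test with the opposite sign. It also passed at 1.03 without alleles under 10 reads, 3.31 without 1 bp indels and 2.29 without the leading allele. Without insertions of 20 bp or more, an alternative chosen after seeing the data, it was 0.675 and passed. With Fah-sg1 it was 0.196 without 1 bp indels, 2.57 with each allele counted once and, passing the test, -1.17 with unedited reads included over all reads. The in-frame difference of Fah-sg2 minus Fah-sg1 was 0.339 without 1 bp indels, 3.48 without the leading allele, which passed with the opposite sign, and -2.16 with each allele once at 3 wpi, and 0.95 and 2.43 for the last 2 settings at 2 wpi. With a microhomology minimum of 1 bp the Fah-sg2 difference was -3.85 and passed, with 3 bp it was 3.61 (Fah-sg2) and 0.697 (Fah-sg1), and with each allele once 1.79 (Fah-sg2) and 0.539 (Fah-sg1). Apart from the alternatives that change the quantity by construction, the cause was not tested.

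Alleles called higher and lower numbered 12 and 12 (Fah-sg1) and 7 and 4 (Fah-sg2) with at least 50 reads, where fewer were tested, and 21 and 44 (Fah-sg1) and 8 and 15 (Fah-sg2) with Bonferroni adjustment. With at least 5 reads 62 Fah-sg2 alleles were lower, and without insertions of 20 bp or more, an alternative chosen after seeing the data, Fah-sg1 had 30 higher and 31 lower. The distance between allele spectra was 0.352 (Fah-sg1) and 0.501 (Fah-sg2) without 1 bp indels, 0.181 and 0.364 without the leading allele, 0.124 and 0.118 without alleles under 10 reads, and 0.0876 and 0.120 without insertions of 20 bp or more. The distance between the guides' length spectra without 1 bp indels was 0.241 at 3 wpi and 0.349 at 2 wpi. No paired analysis was possible because each group is 1 library and the groups compared share fewer than 2 replicate numbers. As a limit of 3 reads, which is not the upper bound of an exact interval, an allele with no read at 2 wpi allows a share of up to 0.0174% of Fah-sg1 reads or 0.0360% of Fah-sg2 reads there.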

Other observations

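A 33 bp deletion of 13 bases left and 18 bases right of the cut with 2 bp of microhomology had 12 reads at 3 wpi and 0 at 2 wpi at the Fah-sg1 site. It had the same numbers at the Fah-sg2 site. The sites have different templates, and whether these reads have a common source was not tested. This deletion was chosen after its values were seen.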
